A study of Mus musculus with 2 samples.

Results

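The interferon-inducible GTPases of the Gbp and Irg families were followed in sorted bone marrow neutrophils of the genotypes labelled Jdp2 KO and Jdp2 WT, with 1 Affymetrix array for each genotype. The set held 10 genes, Gbp2b, Gbp2, Gbp3, Gbp7, Gbp4, Gbp6, Ifi47, Irgm1, Igtp and Iigp1, in a table that gave 18193 genes a probe set of their own. They were chosen from the measured differences between these arrays, because Gbp2b and its relatives differed in opposite directions, so the differences of the members are a description and carry no test. The members had 13 probe sets of their own, and 1 more probe set was annotated to both Gbp8 and Gbp4, which left Gbp4 with no value of its own and 9 members with at least 1.

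Both groups were mice on a mixed background of C57BL/6 and 129/J, and the labels state neither their number and age nor the share of each strain in either group. The labels give the Jdp2 KO group a loss of Jdp2, which encodes a basic leucine zipper protein of the AP-1 group, and call the Jdp2 WT group wild type. Cells were gated as positive for CD11b and Ly6G and low for Ly6C, and no stimulus is named. Signals are log2 values of the RMA method, and every difference is Jdp2 KO minus Jdp2 WT on the log2 scale. With 1 array for each genotype there was no replicate, so no spread between mice and no p-value could be given.

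Guanylate-binding proteins (GBPs) are large GTPases of the dynamin group, and immunity-related GTPases (IRGs) are smaller ones. Interferon gamma induces both strongly in mouse cells. GBPs and the effector IRGs gather on the vacuoles of intracellular parasites and bacteria and help to break them open, while regulatory IRGs such as Irgm1 and Igtp protect the membranes of the host cell from the effectors. The receptor for interferon gamma signals through the kinases Jak1 and Jak2, and many of its target genes carry the gamma-activated site (GAS). Type I interferon acts mainly through the interferon-stimulated response element (ISRE), which interferon regulatory factors bind as well.

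Promoter windows of 250 bases before to 50 bases after the start of transcription were taken from RefSeq on build GRCm38.p6 for 7 of the members, 8 windows in all because Gbp3 had 2 starts. They were searched on both strands for an ISRE-like pattern, GAAANNGAAA, and for a GAS-like pattern, TTCNNNGAA, which reads the same on either strand. Of the 8 windows, 6 held the ISRE-like letters, against 3.44% of 32851 windows of the same length, and 2 held the GAS-like letters, against 8.30%. Both patterns stood in the windows of Gbp7 and Igtp, against 0.454% of all windows. Gbp4, Gbp6 and Iigp1 were left out of the search, so these counts do not cover them. The windows of 4 genes are shown because the results turn on these genes: Gbp2b and Gbp2 are neighbours that differed in opposite directions, Ifi47 differed like Gbp2, and Igtp held both patterns. All are on the plus strand, at chr3:142594597-142594896 for Gbp2b, chr3:142620413-142620712 for Gbp2, chr11:49076337-49076636 for Ifi47 and chr11:58199306-58199605 for Igtp. Capitals mark the matches.
Gbp2b: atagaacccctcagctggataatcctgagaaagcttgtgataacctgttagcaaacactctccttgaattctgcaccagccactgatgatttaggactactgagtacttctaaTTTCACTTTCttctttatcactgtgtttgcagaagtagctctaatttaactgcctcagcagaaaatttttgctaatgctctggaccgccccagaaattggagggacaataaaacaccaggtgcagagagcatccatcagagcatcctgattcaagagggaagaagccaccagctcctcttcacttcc
Gbp2: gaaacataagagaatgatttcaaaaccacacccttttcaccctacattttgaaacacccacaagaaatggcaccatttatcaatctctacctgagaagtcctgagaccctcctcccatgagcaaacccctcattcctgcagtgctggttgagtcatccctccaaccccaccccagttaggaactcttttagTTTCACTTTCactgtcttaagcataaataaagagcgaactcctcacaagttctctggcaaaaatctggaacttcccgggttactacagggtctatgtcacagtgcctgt
Ifi47: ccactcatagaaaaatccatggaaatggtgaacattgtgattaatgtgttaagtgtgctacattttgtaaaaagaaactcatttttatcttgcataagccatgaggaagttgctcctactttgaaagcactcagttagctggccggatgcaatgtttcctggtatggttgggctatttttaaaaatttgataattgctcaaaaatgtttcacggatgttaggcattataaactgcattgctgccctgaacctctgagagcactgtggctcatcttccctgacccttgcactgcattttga
Igtp: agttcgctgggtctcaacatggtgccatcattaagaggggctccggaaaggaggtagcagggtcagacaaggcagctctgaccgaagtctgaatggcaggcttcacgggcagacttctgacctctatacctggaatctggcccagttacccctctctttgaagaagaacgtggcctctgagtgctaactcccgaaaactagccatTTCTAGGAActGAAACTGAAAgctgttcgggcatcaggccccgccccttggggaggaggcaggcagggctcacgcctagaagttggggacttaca

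The windows of Gbp2b and Gbp2 each held 1 ISRE-like match, with the same 10 letters, TTTCACTTTC, which carry the pattern on the opposite strand. It began 137 bases before the start in Gbp2b and 59 bases before it in Gbp2. In Igtp the ISRE-like GAAACTGAAA began 34 bases and the GAS-like TTCTAGGAA 45 bases before the start, and the last base of the GAS-like letters lay 37 bases before it, so the matches did not overlap. The window of Ifi47 held neither pattern, which says only that these letters are not in it. Irgm1 and the first start of Gbp3 each held 2 overlapping ISRE-like matches, and the window of Gbp7 held 1 ISRE-like and 2 GAS-like matches. A match is a run of letters and was not tested for binding.

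**Figure D1:**
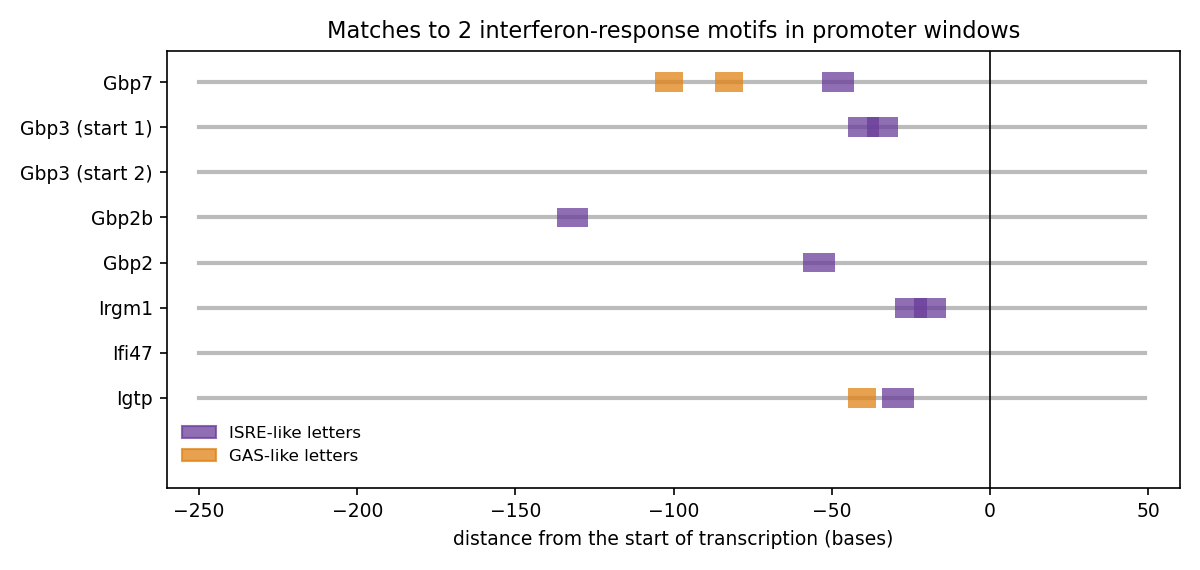
Positions of ISRE-like (purple) and GAS-like (orange) letters in the 8 promoter windows, by distance in bases from the start of transcription (black line). The match of Gbp2b begins 137 bases before the start, farther than any ISRE-like match of the other windows, and the windows of Ifi47 and of the second start of Gbp3 are empty.

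Over all 45037 probe sets that were not controls, the median signal was 5.67 on the Jdp2 KO array and 5.65 on the Jdp2 WT array. The targeted gene did not check the labels: its stronger probe set (1450350_a_at) read 12.38 on the Jdp2 KO array and 11.997 on the Jdp2 WT array, and the labels do not say where its probes lie relative to the deletion. Directions therefore refer to the arrays as labelled. All 10 measured neutrophil markers, among them S100a8, S100a9, Camp and Ltf, read at least 10.67 on the Jdp2 KO array and at least 11.09 on the Jdp2 WT array.

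A gene was kept for counting when the higher of its values reached the median of the array it came from. This level filter left 11168 genes, 6 of them members (Gbp2b, Gbp2, Gbp7, Ifi47, Irgm1 and Igtp). Gbp3, Gbp6 and Iigp1 lay under the median on both arrays, where RMA values hold much background. A gene with several probe sets was represented by the one with the highest mean signal.

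Gbp2b, the gene long called Gbp1, was lower in the Jdp2 KO array. Its single probe set (1420549_at) read 3.93 on the Jdp2 KO array and 7.62 on the Jdp2 WT array, a difference of -3.69. The value on the Jdp2 KO array lay under the array median and the other lay above it. As read, the signal was 12.9-fold lower in the Jdp2 KO array, and 3.88-fold lower with the weak value raised to the array median. In RNA from many cells, fewer cells that express a gene and less RNA in each cell cannot be told apart. The share of each strain in the groups is not stated, and its part in this difference was not tested. How well the single probe set matches the Gbp2b sequence of these mice was not tested.

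Gbp2, which stands next to Gbp2b on chromosome 3 and helps to attack parasite vacuoles, differed the other way. Its stronger probe set (1418240_at) read 8.69 on the Jdp2 KO array and 7.80 on the Jdp2 WT array, a difference of 0.89 or 1.85-fold. The second probe set (1435906_x_at), whose suffix marks probes that may also bind other transcripts, read 8.49 on the Jdp2 KO array and 7.05 on the Jdp2 WT array, a difference of 1.44 or 2.72-fold. Both probe sets were higher in the Jdp2 KO array, and only the second passed 2-fold. Gbp2b and Gbp2 are close relatives in sequence, and whether probes of one bind transcripts of the other was not tested.

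Gbp7 and Gbp3 lie in the same cluster on chromosome 3. Gbp7, which has been linked to defence against bacteria and parasites in mouse macrophages, read 11.10 on the Jdp2 KO array and 10.81 on the Jdp2 WT array in its stronger probe set (1434380_at), a difference of 0.28. The other probe set (1425156_at) read 9.25 on the Jdp2 KO array and 9.18 on the Jdp2 WT array, a difference of 0.07. Both lay above the array medians and both differences were small. Gbp3 (1418392_a_at) read 4.69 on the Jdp2 KO array and 4.10 on the Jdp2 WT array, under both medians, so its difference of 0.59 rests on weak signal.

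The GBPs of chromosome 5 gave little signal of their own. Gbp6 read 4.33 on the Jdp2 KO array and 4.02 on the Jdp2 WT array (1438676_at), and its second probe set (1447927_at) read 4.09 on the Jdp2 KO array and 4.02 on the Jdp2 WT array. All 4 values lay under the medians. The probe set annotated to both Gbp8 and Gbp4 (1421104_at) read 6.69 on the Jdp2 KO array and 7.13 on the Jdp2 WT array, a difference of -0.45, and cannot be given to either gene. A separate probe set of Gbp8 (1418776_at) read 3.87 on the Jdp2 KO array and 4.05 on the Jdp2 WT array, under both medians.

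Among the IRG members past the level filter, the effector Ifi47 (also called Irgd) had the highest difference. It read 9.23 on the Jdp2 KO array and 8.33 on the Jdp2 WT array (1417292_at), a difference of 0.89 or 1.86-fold, close to that of the stronger Gbp2 probe set. The regulators lay near 0. Igtp (Irgm3) read 9.66 on the Jdp2 KO array and 9.56 on the Jdp2 WT array (1417141_at), a difference of 0.10. Irgm1 read 8.69 on the Jdp2 KO array and 8.90 on the Jdp2 WT array (1418825_at), a difference of -0.21. Irgm2, the third regulator of this kind and not a member, read 10.34 on the Jdp2 KO array and 10.46 on the Jdp2 WT array (1417793_at), a difference of -0.12.

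Iigp1 (Irga6), an effector that is loaded onto parasite vacuoles, was weak and its probe sets disagreed. The stronger (1419043_a_at) read 5.46 on the Jdp2 KO array and 4.79 on the Jdp2 WT array, a difference of 0.67. The other (1419042_at) read 4.61 on the Jdp2 KO array and 4.80 on the Jdp2 WT array, a difference of -0.19. All 4 values lay under the array medians, so no direction is given for Iigp1.

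**Figure D2:**
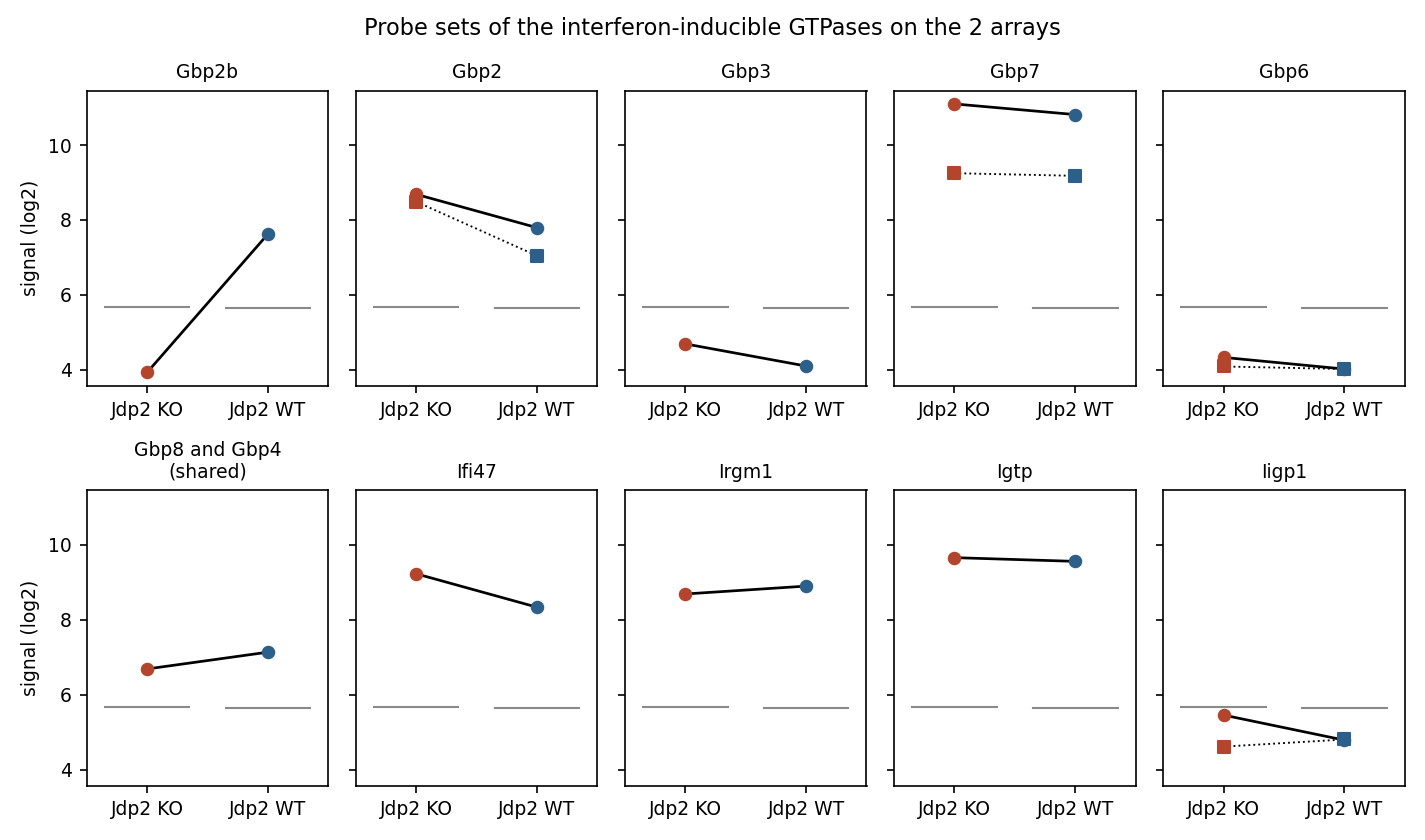
Log2 signal of every probe set of the members on the Jdp2 KO array (left, red) and the Jdp2 WT array (right, blue); solid lines join the probe set with the highest mean or the shared one, dotted lines the others, and grey bars mark each array's median. Gbp2b drops to 3.93 on the Jdp2 KO array, against 7.62 on the Jdp2 WT array, while both probe sets of Gbp2 are higher on the Jdp2 KO array.

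Of the 6 members past the level filter, 0 were at least 2-fold higher in the Jdp2 KO array, where 3.06% of the 11168 genes were, and 1, Gbp2b, was at least 2-fold lower, where 2.33% of the genes were. The members were chosen on this contrast, so nothing is read from these shares. With a gene taken as the average over its probe sets, 1 member, Gbp2 at 1.17, was at least 2-fold higher, and with a filter on both values 0 were 2-fold lower, since Gbp2b was not kept. Of the 6, 4 lay above 0 and 2 below it, with a median of 0.19, whereas the median of all 11168 genes was -0.04 and 44.8% of them lay above 0. Gbp2b passed only through its value on the Jdp2 WT array. Without Gbp2b, the differences of the 12 other probe sets ran from -0.21 to 1.44, with 10 above 0 and 2 below. These 12 include the probe sets of Gbp3, Gbp6 and Iigp1, which lay under the medians on both arrays, so their signs rest on weak signal. The probe set shared by Gbp8 and Gbp4, at -0.45, was not counted among the 12. The central 95% of genes past the filter ran from -0.97 to 1.09, which takes in Gbp2, Ifi47, Gbp7, Igtp and Irgm1 but not Gbp2b. For scale, the difference had an SD of 0.36 among passing probe sets of the same gene, pooled over 4867 genes with at least 2 of them. That SD describes probe sets on shared RNA and not mice.

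**Figure D3:**
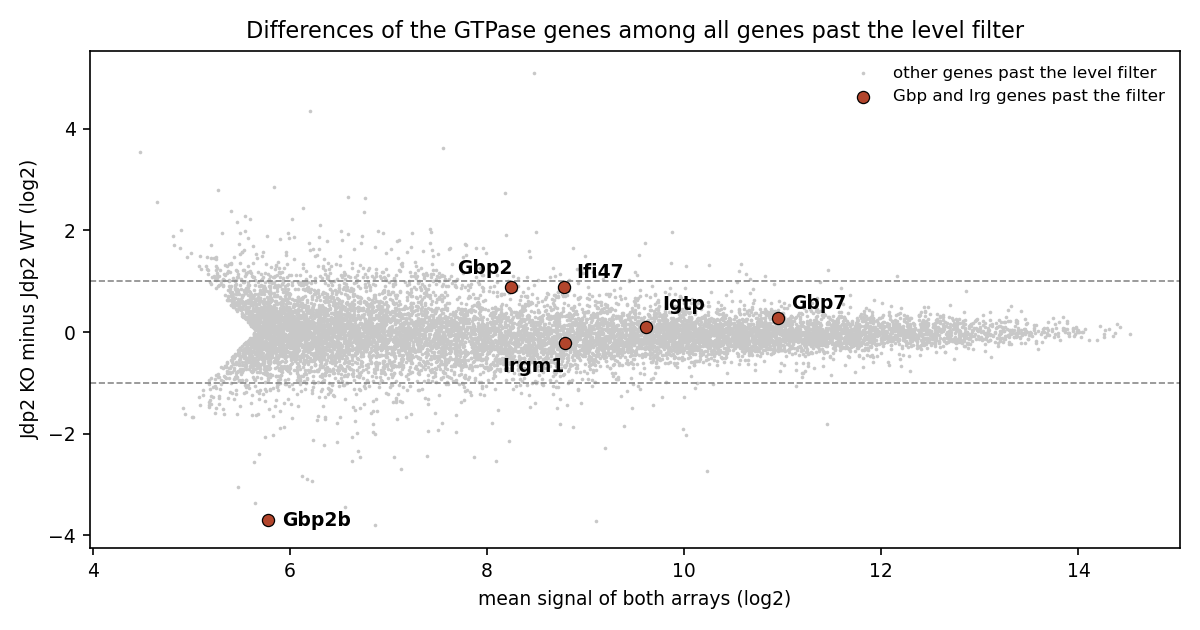
Difference of each of 11168 genes past the level filter (vertical axis, Jdp2 KO minus Jdp2 WT, log2) against its mean signal (horizontal axis, log2), with the 6 members in red and dashed lines at 2-fold. Gbp2b lies at -3.69, Gbp2 and Ifi47 at 0.89, and Gbp7, Igtp and Irgm1 between -0.21 and 0.28.

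The genes beside the GTPase clusters are given as a description. Gbp2b ranked 3 from the lowest difference among the 11168 genes past the level filter, and 99.97% of them had a higher one. It was chosen with this difference known, and its weak value on the Jdp2 KO array was taken as read. The rank is therefore a description only. Smaller drops beside Gbp2b were to be had almost anywhere, so they say nothing particular of this cluster. By gene order on GRCm38.p6, Gbp7, Gbp3, Gbp2b and Gbp2 follow each other on chromosome 3 among the genes with a probe set of their own. Of the 5 such genes on either side of this run, 10 in all, 6 passed the level filter. Their differences ran from -0.19 for Pdlim5 to 0.45 for Hs2st1, and none reached 2-fold. Pdha2 differed by 1.05 but read 4.44 on the Jdp2 KO array and 3.39 on the Jdp2 WT array, under both medians. On chromosome 11, where Irgm1 and Ifi47 lie in one group and Igtp in another, 6 and 10 of 10 flanking genes passed, and their differences ran from -0.93 to 0.60 and from -0.75 to 0.12. On chromosome 5, 5 of 10 flanking genes of the Gbp6 cluster passed, from 0.02 to 1.12, the highest being Abcg3, which read 8.52 on the Jdp2 KO array and 7.40 on the Jdp2 WT array.

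**Figure D4:**
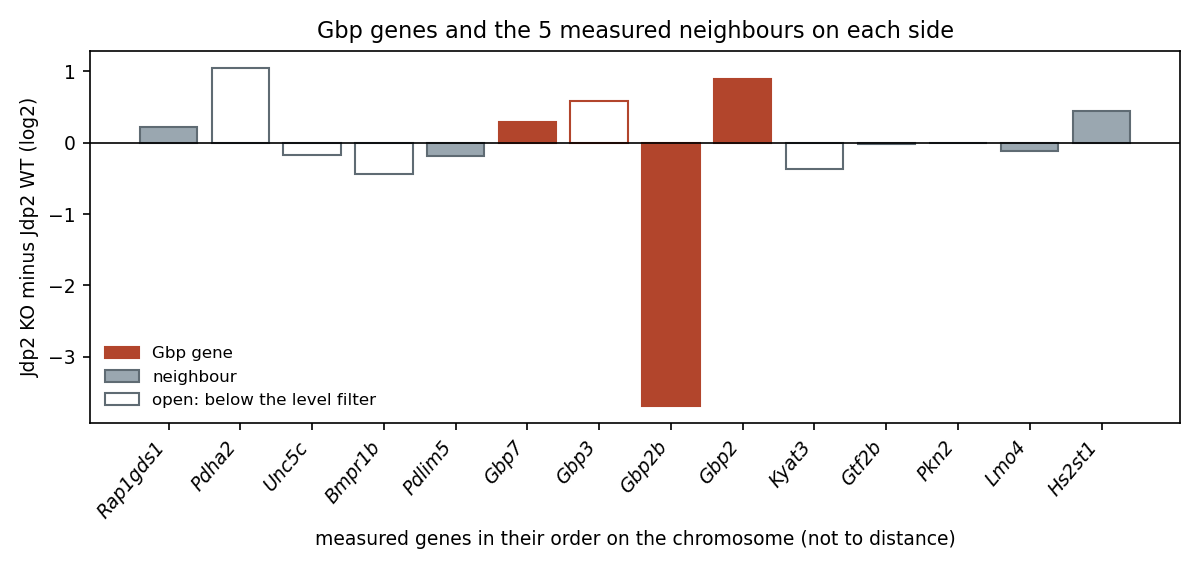
Difference (Jdp2 KO minus Jdp2 WT, log2) of the 4 measured Gbp genes of chromosome 3 (red) and the 5 measured genes on each side (grey), in gene order; open bars lie below the level filter. The bar of Gbp2b reaches -3.69 between Gbp3 at 0.59 and Gbp2 at 0.89.

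The 5 genes whose pair of values lay nearest to that of Gbp2b, by straight-line distance over the 2 arrays, were Mfap3l at 0.30, Tmem45a2 at 0.63, Niban3 at 0.78, Tmem159 at 0.80 and Styk1 at 0.83 log2 units. Mfap3l read 3.97 on the Jdp2 KO array and 7.33 on the Jdp2 WT array. Only genes past the level filter and outside the members were searched, so no member could appear among them. A level of 1 probe set is not comparable with that of another, so this likeness describes signals on 2 arrays only.

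Other genes of the interferon-inducible GTPase families were few among the named probe sets. Of 14 listed, 5 had a probe set of their own and 3 passed the filter, with differences of 0.27 for Mx1, an antiviral GTPase under the median on the Jdp2 WT array, -0.12 for Irgm2 and -0.88 for Irgc1, an IRG known mainly from testis. Irgc1 read 5.01 on the Jdp2 KO array, under the median, and 5.89 on the Jdp2 WT array, and the difference came to 1.17-fold lower with the weak value raised. Their median was -0.12. Probe sets annotated to a pair of genes were not counted. One, for Tgtp2 and Tgtp1, effector IRGs on the list, read 6.53 on the Jdp2 KO array and 5.10 on the Jdp2 WT array, a difference of 1.43 against 0.89 for Ifi47, and the value on the Jdp2 WT array lay under the median. Another, for Gm4070 and Gvin1, of the giant GTPases, differed by 0.09. Gm4951, an IRG that was not listed, differed by 0.27.

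Interferon genes themselves were near background. Ifng read 3.51 on the Jdp2 KO array and 3.32 on the Jdp2 WT array, and Ifnb1 read 5.02 on the Jdp2 KO array and 4.19 on the Jdp2 WT array, all under the medians. Of the 6 listed interferons and inducers, 3 passed, with differences of 0.70 for Il12a, 0.46 for Il18 and -0.38 for Il12b, a median of 0.46 (0.13 with weak values raised to the median), and none past 2-fold. Il12a and Il12b encode the subunits of interleukin-12, which with interleukin-18 drives lymphocytes to make interferon gamma.

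The receptor and signalling chain of interferon gamma was well above background and close between the arrays. Of 12 genes, 11 had a probe set of their own and 9 passed, 3 above 0 and 6 below, with a median of -0.11 and none past 2-fold. The receptor chains Ifngr1 and Ifngr2 differed by 0.11 and -0.11. The largest differences were those of the feedback inhibitor Socs3 (-0.37), the kinase Jak2 (0.34) and the transcription factor Irf1 (-0.29), which read 10.82 on the Jdp2 KO array and 11.12 on the Jdp2 WT array. All 10 genes for type I interferon signalling passed, 7 above 0 and 3 below (5 and 5 with each array centred on its median), with a median of 0.02 and none past 2-fold. They were led by the DNA-sensing adaptor Sting1 (0.82), Stat2 (0.44) and Usp18 (0.39), a protease that dampens the response.

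Other targets of interferon gamma gave a mixed picture. Of 20 listed, 18 had a probe set of their own and 14 passed, 10 above 0 and 4 below (9 and 5 under each of the 3 other scalings tried), with a median of 0.11. At least 2-fold higher were 2 of them, where 3.06% of all 11168 genes past the filter were. Nlrc5, the activator of class I antigen presentation genes, read 10.66 on the Jdp2 KO array and 9.37 on the Jdp2 WT array, a difference of 1.29. Fcgr1, encoding a high-affinity Fc receptor that is also a macrophage marker, read 6.47 on the Jdp2 KO array and 5.23 on the Jdp2 WT array, a difference of 1.24, or 1.77-fold with the weak value on the Jdp2 WT array raised to the median, and its other passing probe set lay at -0.47. The chemokine gene Cxcl10 differed by 0.94. Of the class I presentation genes that Nlrc5 is known to activate, B2m lay at 0.00, Psmb9 at 0.08 and Tap1 at -0.08. H2-K1 lay at -0.02 in its strongest probe set, and its 4 probe sets ran from -0.02 to 0.69. The strongest probe sets of B2m and H2-K1 read 13.998 and 13.40 on the Jdp2 KO array, whose highest value was 14.56.

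Genes whose proteins work with the GTPases at the vacuole ran in both directions. The 10 genes of the ATG8 conjugation system, which IRGs and GBPs need to find the right membrane in mouse cells, all passed, 4 above 0 and 6 below, with a median of -0.10 and none past 2-fold. The largest differences were those of Map1lc3a (-0.70), Atg16l1 (-0.39) and Atg5 (-0.28). Of 8 listed ubiquitin ligases and adaptors at the vacuole, 7 passed, 2 above 0 and 5 below, with a median of -0.17 and with Rnf31 (-0.50), Calcoco1 (-0.37) and Traf6 (-0.29) as the largest differences of the probe sets used. Another probe set of Rnf213, a giant ubiquitin ligase, lay at 1.39, whereas its stronger one lay at 0.17. All 8 genes of the inflammasome pathways in which GBPs take part passed, 7 above 0 and 1 below (8 and 0 after quantile normalization or removal of a lowess trend), with a median of 0.09. Il18 (0.46), the DNA sensor Aim2 (0.38) and the pore former Gsdmd (0.14) led them, and Casp4, which encodes caspase-11, the sensor of bacterial lipopolysaccharide, differed by 0.09.

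Markers of monocytes and macrophages, cells that also make these GTPases, were higher in the Jdp2 KO array, where Gbp2 and Ifi47 were higher as well. Of 18 listed, 16 had a probe set of their own, and 13 of these reached the median on the Jdp2 KO array and 8 on the Jdp2 WT array. Of the 14 that passed the level filter, 13 lay above 0 and 9 were at least 2-fold higher, with a median of 1.17. Of all 11168 genes past the filter, 44.8% lay above 0 and 3.06% were at least 2-fold higher. The marker below 0 was Mertk (-0.59), whose value on the Jdp2 KO array lay under the median. Over all 16, linear signals summed to 8722 on the Jdp2 KO array and 5874 on the Jdp2 WT array. F13a1 differed by 2.43, Ms4a6c by 1.69, Mrc1 by 1.64, C1qa by 1.54, Adgre1 by 1.25, Fcgr1 by 1.24, C1qc by 1.18, C1qb by 1.17 and Ccr2 by 1.07. F13a1, Ms4a6c, C1qa, Fcgr1 and C1qc lay under the median on the Jdp2 WT array, and with weak values raised to the median 5 of the 14 markers were at least 2-fold higher, with a list median of 0.82. The part of these markers in the differences of Gbp2 and Ifi47 was not tested. Gbp2b differed the other way in the same arrays.

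Markers of lymphocytes and other cells ran in both directions. Of all 11168 genes past the level filter, 3.06% were at least 2-fold higher and 2.33% at least 2-fold lower. Of 12 T and NK cell genes, the main source of interferon gamma, 10 had a probe set of their own, 5 reached the median on the Jdp2 KO array and 6 on the Jdp2 WT array, and the 6 that passed had a median of 0.28 with none past 2-fold. They were led by Nkg7 (0.70), Cd8a (-0.66) and Cd4 (0.51), and their linear signals, over all 10, summed to 2438 on the Jdp2 KO array and 2213 on the Jdp2 WT array. Of 4 B cell genes that passed, with a median of 0.48, Igll1 (1.15) was past 2-fold, or 1.60-fold higher with its weak value on the Jdp2 WT array raised, and Ighm (-0.93) and Cd79a (0.85) came next. Of 7 dendritic cell genes that passed, 4 lay above 0 and 3 below, with a median of 0.07. Cd74 (1.09) and H2-Ab1 (1.04, or 1.57-fold with its weak value on the Jdp2 WT array raised) were past 2-fold. H2-Eb1 lay at 0.97. The genes below 0 were H2-Aa (-0.76), Itgax (-0.18) and Zbtb46 (-0.09). The value for H2-Aa is that of its strongest probe set, and a weaker one differed by 1.36. Of 2 erythroid genes that passed, Car2 lay at -1.29 and Slc4a1 at -0.14. The 10 neutrophil markers had a median of -0.06 and none was past 2-fold, with Itgam (-0.43), Csf3r (-0.30) and Cxcr2 (0.24) as the largest.

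**Figure D5:**
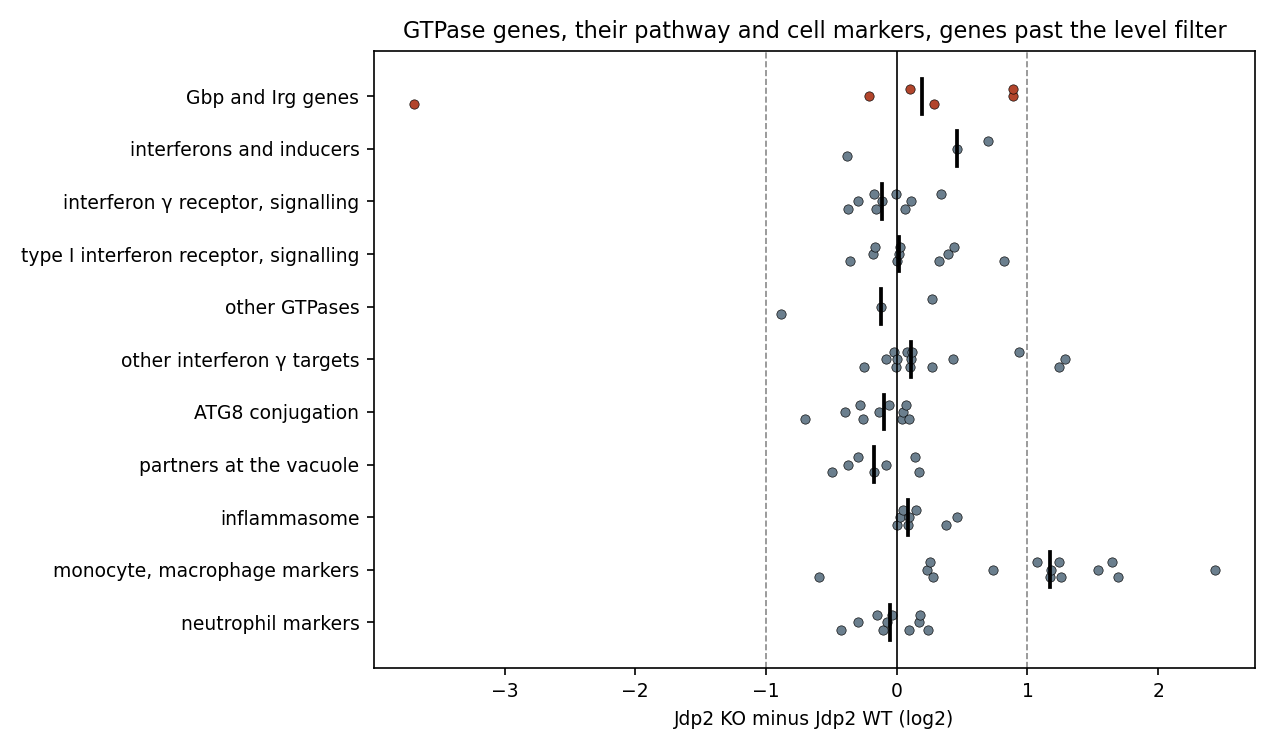
Difference (Jdp2 KO minus Jdp2 WT, log2) of each gene past the level filter in the members (red) and in 10 lists (grey), with black bars at the medians and dashed lines at 2-fold. The signalling, conjugation and inflammasome genes lie within 2-fold, and the monocyte and macrophage markers have a median of 1.17.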

How the data were processed

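Total RNA of sorted neutrophils was biotin-labelled and hybridised to 2 Affymetrix arrays, per the labels' protocols. The authors deposited log2 probe set summaries from RMA, as the submitters' processing notes name it, with version and settings not given in the sources used here and no detection call. Once sorted, the columns were within 0.117 of each other at every rank, so both already shared a scale. Weak values contain background, which understates folds of weak genes.

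Of 45101 probe sets, 64 were controls. Of the other 45037, 34945 had 1 gene symbol in the platform annotation, 932 had several and 9160 were not listed. Of the 34945, 34741 were updated by Entrez identifier against a RefSeq gene table of GRCm38.p6, and 204 kept their symbol. That table gave gene order, and RefSeq promoters came from the same build. The array files name no build.

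For a gene with several probe sets, the one of highest mean was used. The level filter is given with the results, and 2-fold means a log2 difference of 1 or more in size. The named genes were all members, members of the lists past 2-fold or among the 3 largest passing differences, Jdp2, and the 5 nearest genes to Gbp2b. Values named beside these, and the flanking genes, were chosen after values were seen. The members and lists were chosen with earlier results of these data known. The steps were tested on simulated data. The simulated shifts were larger than 2-fold and placed in genes of clear signal. Weak values, such as that of Gbp2b on the Jdp2 KO array, were therefore not covered. Alternatives covered 3 scalings, 2 ways of treating several probe sets, 3 level filters and weak values raised to the array median. The 3 scalings and the raised weak values were applied to the gene lists after their values were seen. The number of arrays limits precision. Python 3.11.15, pandas 2.3.3 and statsmodels 0.14.6 (lowess, span 0.3) were used.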

Additional observations from a re-analysis of the deposited data

Results flagged for a closer look

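A probe set outside the gene counts was higher in the Jdp2 KO array than in the Jdp2 WT array. It is annotated to both Tgtp2 and Tgtp1 (1449009_at), near-identical effector IRGs also called Irgb6, and read 6.53 on the Jdp2 KO array and 5.10 on the Jdp2 WT array, a difference of 1.43. The value on the Jdp2 WT array lay under the array median, and the difference came to 1.84-fold higher with that value raised to the median. It could not be given to either gene, and with 1 array for each genotype it has no replicate check.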

How the results depend on the processing

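Each member was recomputed under 9 alternatives, which gave 72 values over the 9 members. Of these, 67 moved by less than 0.36, the SD among probe sets of a gene. Many of the 72 could not move, so this count does not measure stability. The 3 level filters only keep or drop a member. The ways of treating several probe sets keep or drop a member with 1 probe set unchanged. Raising weak values changes only members with a value under a median. Gbp2b ran from -3.71 to -1.96 over the 7 alternatives that kept it, Gbp2 from 0.87 to 1.17, Ifi47 from 0.88 to 0.97, Gbp7 from 0.18 to 0.32, Igtp from 0.08 to 0.17 and Irgm1 from -0.23 to -0.12. Iigp1 gave -0.19 when probe sets marked as shared were dropped, and 0.24 as the average of its probe sets. Raising weak values to the median took Gbp3, Gbp6 and Iigp1 to 0.02. With the mean of all probe sets, 1 member, Gbp2, was at least 2-fold higher, and 183 genes were higher and 171 lower by 2-fold. With a filter at the 75th percentile, or on both values, Gbp2b was not kept, so 0 members were 2-fold lower, and the counts of genes were 110 higher and 87 lower at the 75th percentile, and 184 higher and 145 lower with the filter on both values. With weak values raised to the median, 222 genes were higher, against 342. Fewer genes pass the stricter filters by construction, and raised values shrink differences. Under the 3 other scalings, and with weak values raised to the median, which were applied to the gene lists after their values were seen, no list median changed sign. The median of the members ran from 0.14 to 0.31. With 1 array for each genotype, no replicate could be left out.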
